A study of Rattus norvegicus with 54 samples.

Results

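Neuropeptide and secretory granule genes encode the cargo of dense-core vesicles, the organelles from which neurons release peptides. They were followed in RNA sequencing libraries from rat cortical neuron cultures. The members were given as a list of 9 genes, each with its Ensembl identifier and chromosome, and an identifier was kept where the count table carried it on that chromosome. This left 8 of the 30560 genes of the table: Vgf (ENSRNOG00000001416), Scg2 (ENSRNOG00000015055), Sst (ENSRNOG00000001837), Cck (ENSRNOG00000019321), Npy (ENSRNOG00000046449), Adcyap1 (ENSRNOG00000049882), Crh (ENSRNOG00000012703) and Pdyn (ENSRNOG00000026036). The ninth, Tac1, was not analysed here. All 8 passed the filter on low counts, which left 17172 genes for testing.

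The cells were neurons from the cortex of embryos at stage e18, and the design crossed 3 constructs, 2 media and 3 time points in 18 groups of 3 libraries. The constructs were no virus (non-transfected, called untransfected below), the control adeno-associated virus AAV-SYN-GFP (called GFP) and the Mbd3-overexpressing virus AAV-SYN-rMBD3-GFP (called rMBD3); the viruses have SYN, which the labels do not spell out, and GFP in common, so the rMBD3 libraries were set against the GFP libraries. The media were the standard one with magnesium and one without it, in which the cultures become epileptiform, and cells were taken 2, 6 and 24 h from that induction. Every group held 1 library from each of 3 cell cultures, numbered 1 to 3. The labels do not say what a culture number stands for in animals. Within a group, the spread is that between these cultures. The main test had no term for culture number, so comparisons averaged over groups treated the libraries of a culture as independent. Same-culture libraries of 1 time shared part of their deviations from the group means (mean correlation 0.22). P-values of averaged comparisons therefore do not measure the spread between 3 cultures. The question behind the design was how Mbd3 overexpression and epileptiform activity change transcripts over time.

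A neuropeptide is made as a larger precursor, sorted into dense-core granules in the trans-Golgi network, cut there by prohormone convertases and released by calcium-dependent exocytosis. Granins such as Vgf and Scg2 help to form the granules and are themselves cut into peptides. In the cortex Sst, Npy and Cck are best known as products of interneurons, Adcyap1 and Crh as modulators of excitability and stress signalling, and Pdyn as the source of opioid peptides. Several of these genes are textbook targets of CREB, the transcription factor that binds the cAMP response element (CRE) after calcium or cAMP signals.

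The CRE can be looked for in promoter sequence. RefSeq promoters of the GRCr8 build, reaching from 250 bases before to 50 bases after the annotated start, were matched by symbol for 6 of the 8 genes; Cck and Crh are named only. This build is not that of the counts, so positions below apply to the sequences alone. The full CRE, TGACGTCA, which reads the same on both strands, was found in the windows of Vgf, Scg2 and Sst, against 612 of 33469 promoters in all (1.83%). The 30 bases around each match are shown on the strand of the gene, 5′ to 3′, with the CRE in capitals; they come from chr12:25277092-25277121 (minus strand), chr9:88256971-88257000 (minus strand) and chr11:90461537-90461566 (plus strand).
Vgf: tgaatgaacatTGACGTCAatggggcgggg
Scg2: ggctgagccggTGACGTCAgcgaggaatgc
Sst: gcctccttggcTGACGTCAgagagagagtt

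Counted from the annotated start, the match lay at -90 to -83 in Vgf, at -123 to -116 in Scg2 and at 3 to 10 in Sst, just past the start given for that gene. The letters TGACGTCA are not in the windows of Npy, Pdyn and Adcyap1. The 250 bases before the start are printed for the granin pair, because Scg2 passed the test for rMBD3 and Vgf was 1 of the 2 genes, with Npy, whose cultures went opposite ways; the CRE is again in capitals. The Scg2 stretch is chr9:88256867-88257116 and the Vgf stretch chr12:25277021-25277270, both on the minus strand.
Scg2: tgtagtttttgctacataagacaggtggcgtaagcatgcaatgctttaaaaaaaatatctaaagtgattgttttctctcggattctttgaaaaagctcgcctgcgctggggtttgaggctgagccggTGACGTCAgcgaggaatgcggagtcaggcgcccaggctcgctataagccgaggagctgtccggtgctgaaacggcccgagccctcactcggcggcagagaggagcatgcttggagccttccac
Vgf: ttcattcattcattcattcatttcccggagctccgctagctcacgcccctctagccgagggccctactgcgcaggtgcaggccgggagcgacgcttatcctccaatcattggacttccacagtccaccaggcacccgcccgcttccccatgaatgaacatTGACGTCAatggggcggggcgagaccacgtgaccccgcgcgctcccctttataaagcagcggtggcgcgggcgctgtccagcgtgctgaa

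Besides the CRE, the Vgf window held 2 matches to the TATA box letters TATAAA, 1 on either strand and overlapping each other, and 2 matches to CCAAT, 1 on either strand. The Scg2 window held neither. TATAAA occurred in 14.2% and CCAAT in 37.5% of all promoters when both strands were searched. A match describes the letters only.

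The libraries held 14448927 to 39691105 counts each, with a median of 26121007, so that a floor of 3 counts stood for 0.0756 to 0.208 CPM, the count relative to the library's total in the usual unit. All levels below are CPM scaled by the TMM factors of edgeR, and levels of different genes are compared only as CPM per kilobase of exon. Mbd3 and the marker genes of neurons and other cell types were not looked up, because no table given pairs the identifiers with symbols; the labelled cell type therefore stands unchecked. The libraries of culture 1 differed on average from the others at the later times. On the first principal component, which held 31.6% of the variance and followed time, culture 1 averaged 43.8 at 24 h against 133.5 in culture 2 and 97.5 in culture 3. Its mitochondrial genes took a mean of 3.58% of the counts at 6 h and 3.21% at 24 h, against 2.08% and 2.08% in culture 2 and 2.69% and 2.68% in culture 3. Single libraries of cultures 1 and 3 overlapped. On the first component at 24 h, culture 1 ran from 14.4 to 83.2 and culture 3 from 8.45 to 149. Culture 2 ran from 91.6 to 158. The mitochondrial share at 24 h ran from 1.95% to 4.07% in culture 1 and from 1.85% to 4.90% in culture 3. Results that rest on culture 1 are given with and without it. The libraries hold the RNA of whole cultures, so fewer cells of a type and less RNA per cell cannot be told apart.

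Scg2 and Vgf were the most abundant of the 8 transcripts at every time, and Crh and Pdyn the least. At 2 h, Scg2 had 255 ± 98.3 CPM per kilobase, Vgf 241 ± 109, Sst 218 ± 85.6 and Cck 175 ± 70.8 (SD, n = 18 libraries). These 4 neighbours differed from each other by less than their SD. Adcyap1 with 50.3 ± 11.3 and Npy with 41.9 ± 8.71 CPM per kilobase formed the next step, also within their SD of each other. Crh had 1.73 ± 0.626 and Pdyn 1.01 ± 0.422 CPM per kilobase at that time. By 24 h the per-kilobase order was Scg2 (294 ± 190), Vgf (183 ± 212), Sst (86.6 ± 96.6), Cck (58.8 ± 56.5), Npy (37.8 ± 39.4), Adcyap1 (12.1 ± 10.0), Pdyn (4.35 ± 2.78) and Crh (0.725 ± 0.790). Pdyn and Crh had thus changed places, and of all neighbours in the 24 h order only this last pair lay further apart than the larger SD. The SD of the levels at 24 h was as large as the mean, or nearly so, for Vgf, Sst, Cck, Npy, Adcyap1 and Crh, whereas at 2 h it was below the mean for each of the 8.

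**Figure D1:**
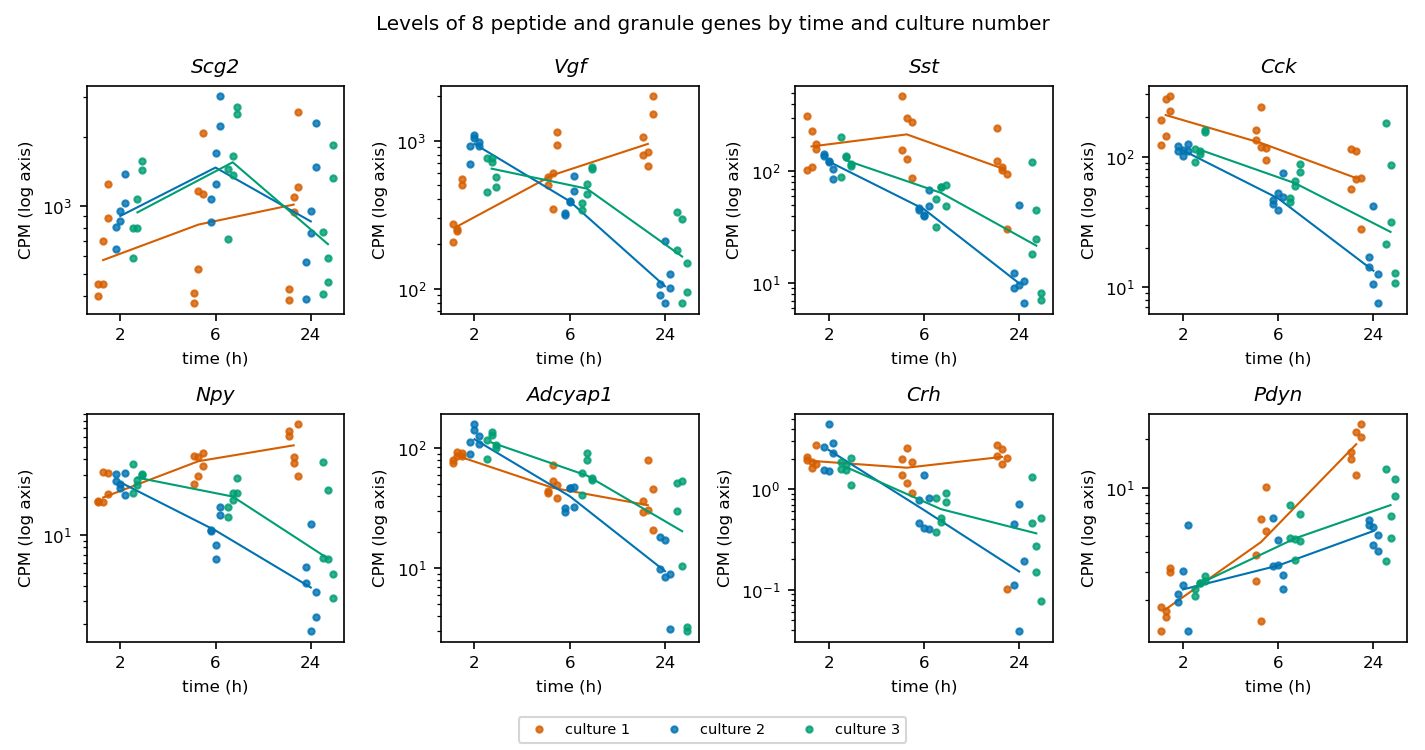
Level of each gene (CPM, log axis) in every library at 2, 6 and 24 h; points are libraries, coloured by culture number, and lines join the medians of the 6 libraries of a culture. Vgf and Npy lines go up in culture 1 and down in cultures 2 and 3, while Adcyap1 goes down and Pdyn up in every culture; 1 Crh library with 0 counts cannot be drawn on the log axis.

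More of these genes passed the test for time than for medium or construct. Averaged over the 6 combinations of construct and medium, 5 of the 8 differed between 24 and 2 h: Pdyn rose, and Adcyap1, Cck, Sst and Crh fell. The median change of the 8 genes was -0.99 on the log2 scale, beside 0.02 over all genes tested. Of all 17172 genes tested, 69.5% changed between these times, 34.2% upwards and 35.3% downwards, so 5 of 8 was close to the share of genes in general. Comparisons of 6 with 2 h and of 24 with 6 h also gave 5 of 8 genes each, against 49.1% of all genes (22.2% higher, 26.9% lower) and 50.6% (24.3% higher, 26.3% lower). These 3 comparisons share their libraries and are not independent of each other.

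Pdyn encodes prodynorphin, the precursor of the dynorphins, opioid peptides that act on the kappa receptor and dampen excitatory transmission. Its level ran from 1.28 to 5.88 CPM at 2 h (median 2.40), from 1.48 to 10.2 CPM at 6 h (median 4.68) and from 3.48 to 24.8 CPM at 24 h (median 7.78; n = 18 libraries each). The ranges overlapped, but 17 of 18 same-numbered pairs were higher at 24 h than at 2 h. edgeR fitted a log2 change of 2.12 ± 0.26 (SE; adjusted p = 1.67e-09), made up of 0.95 ± 0.25 up to 6 h (adjusted p = 0.00174) and 1.17 ± 0.25 from 6 to 24 h (adjusted p = 0.000143). The 24 h libraries of culture 1, at 12.1 to 24.8 CPM, lay above those of culture 2, at 4.02 to 6.31 CPM, and overlapped those of culture 3, at 3.48 to 13.04 CPM, only at their lower end. Without culture 1 the rise of Pdyn from 2 to 24 h was 1.40 ± 0.22 (adjusted p = 4.18e-06) and that from 6 to 24 h 0.51 ± 0.22 (adjusted p = 0.0439). With only the 24 h libraries of culture 1 left out, the change from 6 to 24 h was 0.47 (adjusted p = 0.0527), and without culture 3 that from 2 to 6 h was 0.85 (adjusted p = 0.0783).

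Adcyap1 encodes PACAP, a peptide that raises cAMP through G protein-coupled receptors and supports the survival of neurons. It fell at each step. Its range was 74.8 to 159 CPM at 2 h (median 103), 29.5 to 91.4 CPM at 6 h (median 47.2) and 2.98 to 79.4 CPM at 24 h (median 19.4). All 18 same-numbered pairs were lower at 6 h than at 2 h, and all 18 were lower at 24 h than at 2 h. The fitted change from 2 to 24 h was -2.23 ± 0.27 (adjusted p = 1.64e-09), the lowest of the 8 genes, with -1.08 ± 0.26 to 6 h (adjusted p = 0.000619) and -1.15 ± 0.26 from 6 to 24 h (adjusted p = 0.00033). Mean within-culture log2 differences from 2 to 24 h were -1.21, -3.67 and -2.95 in cultures 1, 2 and 3. Without culture 1 the Adcyap1 change was -3.12 ± 0.25 from 2 to 24 h (adjusted p = 1.82e-10) and -1.97 ± 0.24 from 6 to 24 h (adjusted p = 3.87e-07), both further from 0 than with it.

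Cck and Sst, which encode cholecystokinin and somatostatin, fell between 2 and 24 h. Cck went from 90.3 to 290 CPM at 2 h (median 122) to 38.9 to 240 CPM at 6 h (median 69.7) and 7.47 to 181 CPM at 24 h (median 29.7). Its fitted log2 change was -1.76 ± 0.32 from 2 to 24 h (adjusted p = 6.58e-06), and 17 of 18 pairs were lower; the exception was the untransfected library of culture 3 in medium with magnesium, which held the highest 24 h value. For Sst the range was 85.6 to 312 CPM at 2 h (median 129), 32.04 to 464 CPM at 6 h (median 70.0) and 6.62 to 242 CPM at 24 h (median 27.7). The Sst change over the same interval was -1.58 ± 0.41 (adjusted p = 0.000743), lower in 16 of 18 pairs. By step, Cck changed by -0.78 ± 0.31 to 6 h (adjusted p = 0.0359) and Sst by -0.42 ± 0.40 (adjusted p = 0.405); the difference between the 2 genes was not tested. From 6 to 24 h, Cck changed by -0.98 ± 0.31 (adjusted p = 0.00872) and Sst by -1.17 ± 0.40 (adjusted p = 0.0149). Culture 1 held the highest Sst values at 6 h, 87.3 to 464 CPM against 39.6 to 67.9 CPM in culture 2 and 32.04 to 74.8 CPM in culture 3. With the culture number as a block, the Sst change to 6 h was -0.80 ± 0.26 (adjusted p = 0.00891), so that 6 of 8 genes passed, against 54.7% of all genes. Without culture 1 it was -1.16 (adjusted p = 0.000371).

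Some calls for these 2 genes did not hold in every fit. The Cck change to 6 h had a negative mean in each culture (-0.53, -1.19 and -0.95 in cultures 1, 2 and 3), with 17 of 18 pairs lower. Leaving out culture 2 or 3 also lowered the share of all genes called for 6 against 2 h, from 49.1% to 32.2% or 29.7%. The Cck change to 6 h missed the threshold without culture 2 (-0.64, adjusted p = 0.156), without culture 3 (-0.73, adjusted p = 0.227), with DESeq2 (-0.73, adjusted p = 0.0506), with RLE scaling (-0.73, adjusted p = 0.0555) and with no filter on low counts (-0.78, adjusted p = 0.0584). The Cck change from 6 to 24 h missed it without culture 2 (-0.85, adjusted p = 0.0576). For Sst from 2 to 24 h, the value was -2.63 without culture 1 (adjusted p = 7.65e-09) and -1.33 without culture 3 (adjusted p = 0.0532). From 6 to 24 h, Sst changed by -1.08 without culture 2 (adjusted p = 0.0742) and by -1.15 without culture 3 (adjusted p = 0.133). With the 24 h libraries of culture 1 left out, the 6 to 24 h changes were -2.48 for Sst and -1.72 for Cck, both past the threshold (adjusted p = 1.12e-06 and 1.02e-05).

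Crh encodes corticotropin-releasing hormone, the peptide that starts the hormonal stress response and also excites cortical and hippocampal neurons. Its counts were low. Its range was 1.09 to 4.42 CPM at 2 h (median 1.85), 0.374 to 2.55 CPM at 6 h (median 0.821) and 0 to 2.73 CPM at 24 h (median 0.455). At 24 h single libraries held 0 to 87 counts of Crh, and the rMBD3 library of culture 2 in medium with magnesium held 0. The fitted change was -1.54 ± 0.41 from 2 to 24 h (adjusted p = 0.000976), lower in 15 of 18 pairs, and -1.07 ± 0.40 from 2 to 6 h (adjusted p = 0.0237), while that from 6 to 24 h was -0.47 ± 0.40 (adjusted p = 0.341). Means within cultures 1, 2 and 3 were -0.55, -4.03 and -2.24 from 2 to 24 h. Without culture 1 the 2 to 24 h change of Crh was -2.75 (adjusted p = 2.5e-06), and without culture 3 it was -1.37 (adjusted p = 0.0505). The Crh change from 6 to 24 h passed without culture 1 (-1.19 ± 0.42, adjusted p = 0.0187) and with only its 24 h libraries left out (-1.75 ± 0.38, adjusted p = 0.000182). The change to 6 h was -0.70 without culture 2 (adjusted p = 0.22) and -0.97 without culture 3 (adjusted p = 0.221).

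Scg2 encodes secretogranin II, a granin of the dense-core vesicle matrix and the precursor of secretoneurin. Unlike the other called genes it had its highest median over all libraries at 6 h, and its median at 24 h was near that at 2 h. The range was 402.5 to 1573 CPM at 2 h (median 833), 372 to 3031 CPM at 6 h (median 1307) and 386 to 2581 CPM at 24 h (median 853). It rose by 0.64 ± 0.17 on the log2 scale to 6 h (adjusted p = 0.00161), with 16 of 18 pairs higher, and changed by -0.58 ± 0.17 from 6 to 24 h (adjusted p = 0.00396), with 15 of 18 pairs lower. Between 2 and 24 h the change of Scg2 was 0.06 ± 0.17 (adjusted p = 0.769). The constructs differed in this: means at 2 and 24 h were 1258 and 1795 CPM with rMBD3, 805 and 798 CPM with GFP, and 617 and 492 CPM in untransfected libraries. In culture 1 the medians at 2, 6 and 24 h were 578, 827 and 1013 CPM, highest at 24 h. The later decline was seen in cultures 2 and 3, where 12 of 12 pairs were lower (means -0.77 and -1.04), and not in culture 1, where 3 of 6 were lower (mean 0.21); the difference between cultures was not tested. Without culture 1 the change of Scg2 from 6 to 24 h was -0.88 (adjusted p = 5.61e-06), without culture 2 it was -0.47 (adjusted p = 0.138) and without culture 3 it was -0.37 (adjusted p = 0.189). The rise to 6 h was 0.59 without culture 2 (adjusted p = 0.0675).

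**Figure D2:**
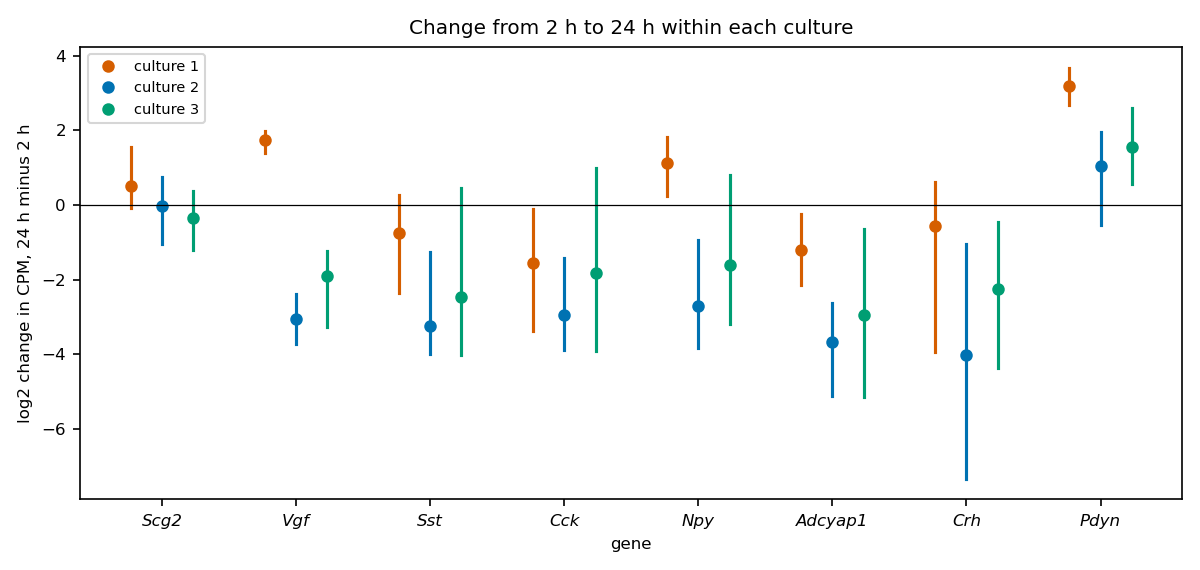
Log2 difference in CPM between 24 h and 2 h for each gene and culture; points are means over the 6 combinations of construct and medium, and bars run from the lowest to the highest of the 6. Vgf differences lie wholly above 0 in culture 1 and wholly below 0 in cultures 2 and 3, whereas all 18 of Adcyap1 lie below 0.

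Vgf and Npy did not pass the time test, and their libraries split by culture number. Vgf encodes a granin-like precursor that is induced by nerve growth factor and by neuronal activity, and Npy encodes neuropeptide Y, an inhibitory peptide of many interneurons. In culture 1, the 6 Vgf values at 2 h were 207, 245, 254, 272, 500 and 554 CPM, and those at 24 h were 669, 802, 834, 1064, 1502 and 1989 CPM. In cultures 2 and 3 the 12 libraries spanned 450 to 1094 CPM at 2 h and 79.2 to 327 CPM at 24 h. Vgf was thus higher at 24 h in all 6 pairs of culture 1, without overlap. It was lower in all 12 pairs of the other cultures, also without overlap. Mean log2 differences were 1.75, -3.05 and -1.90 in cultures 1, 2 and 3. Vgf and Npy were picked from the members by this split. The share of all genes that split, or lay apart, in this way was not counted.

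Npy went the same way with more spread. In culture 1 it spanned 18.3 to 31.3 CPM at 2 h and 29.3 to 75.3 CPM at 24 h, in culture 2 20.6 to 31.03 CPM and 1.74 to 12.2 CPM, and in culture 3 21.4 to 36.5 CPM and 3.21 to 37.8 CPM. At 2 h the ranges of Npy in the 3 cultures overlapped, and at 24 h no library of culture 2 reached the lowest of culture 1. Of the Npy pairs, 6 of 6 were higher at 24 h in culture 1, 6 of 6 lower in culture 2 and 5 of 6 lower in culture 3 (means 1.12, -2.70 and -1.61). Fitted over all libraries, the changes from 2 to 24 h were -0.45 ± 0.38 for Vgf (adjusted p = 0.3) and -0.23 ± 0.39 for Npy (adjusted p = 0.617). With the culture number as a block they were -1.02 for Vgf (adjusted p = 0.0239) and -0.94 for Npy (adjusted p = 0.00989), so that 7 of 8 genes passed, against 73% of all genes. Same-numbered libraries of 2 and 24 h shared little of their deviation from the group means (mean correlation across genes 0.0459), so the number paired these times only weakly.

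Without culture 1, the change from 2 to 24 h was -2.39 ± 0.19 for Vgf (adjusted p = 1.29e-10) and -1.94 ± 0.27 for Npy (adjusted p = 1.58e-06). In that fit 7 of 8 genes passed for 24 against 2 h (75.2% of all genes), and 8 of 8 for 6 against 2 h (57.5%) and for 24 against 6 h (60.3%). Leaving out only the 6 libraries of culture 1 at 24 h gave -2.16 for Vgf (adjusted p = 1.37e-09) and -1.93 for Npy (adjusted p = 1.89e-07), with 7 of 8 genes past the threshold and 71.9% of all genes. Culture 1 differed on average in the first component at 24 h and in the mitochondrial share at 6 and 24 h, as given above. The part of these differences in the Vgf and Npy values was not tested.

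Whether the epileptiform medium altered these genes was asked at each time, averaged over the 3 constructs. No member passed the threshold at 2, 6 or 24 h in edgeR, and neither did any of the 17172 genes tested (0% at each time). At an unadjusted p under 0.05 there were 0 of the 8 members at each time, and 132, 355 and 1988 genes in all at 2, 6 and 24 h; DESeq2 called 1, 0 and 103 genes and no member. At 2 and 6 h every fitted change of the 8 lay between -0.36 and 0.30. At 24 h the 8 genes had a median change of -0.72, beside -0.0016 over all genes, and 7 of them had a negative value. In medium without magnesium Crh was at -1.18 ± 0.59 (adjusted p = 0.435) and Sst at -1.02 ± 0.57 (adjusted p = 0.492). Cck was at -0.88 ± 0.44 (adjusted p = 0.443) and Npy at -0.80 ± 0.56 (adjusted p = 0.6), relative to medium with magnesium. Crh was lower in 6 of 9 pairs, with a mean difference of 0.58 in culture 2. Its 24 h libraries held only 0 to 64 counts with magnesium and 1 to 87 without it.

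Npy and Sst were the 2 genes with the most pairs in 1 direction at 24 h, followed by Vgf, lower without magnesium in 7 of 9 pairs (mean -0.60). They were picked by these values, and the share of all genes with as many pairs in 1 direction was not counted. Npy with magnesium had 37.2, 65.9 and 75.3 CPM in culture 1, 3.54, 5.62 and 12.2 CPM in culture 2, and 4.93, 22.6 and 37.8 CPM in culture 3. Without magnesium it had 29.3, 41.5 and 60.9 CPM, 1.74, 2.26 and 4.19 CPM, and 3.21, 6.50 and 6.58 CPM in the same order of cultures. The 2 media overlapped as groups. Within cultures, Npy was lower without magnesium in 8 of 9 same-numbered pairs, and Sst was lower in 8 of 9 as well. The exceptions were the GFP pair of culture 1 for Npy and the rMBD3 pair of culture 2 for Sst.

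With a block for each culture number and time point, 3 of the 8 genes were called lower without magnesium at 24 h, against 6.91% of all genes. These were Npy (-1.26 ± 0.24, adjusted p = 0.00292), Sst (-1.11 ± 0.31, adjusted p = 0.0231) and Cck (-0.90 ± 0.27, adjusted p = 0.0399). With 1 block per culture number over all times, none of the 8 was called. With the 24 h libraries of culture 1 left out, only Npy was (-1.57 ± 0.42, adjusted p = 0.0322; 3.06% of all genes). Whether the medium effect itself differed between 24 and 2 h was tested as an interaction, and 0 of 8 members and 0% of all genes passed.

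**Figure D3:**
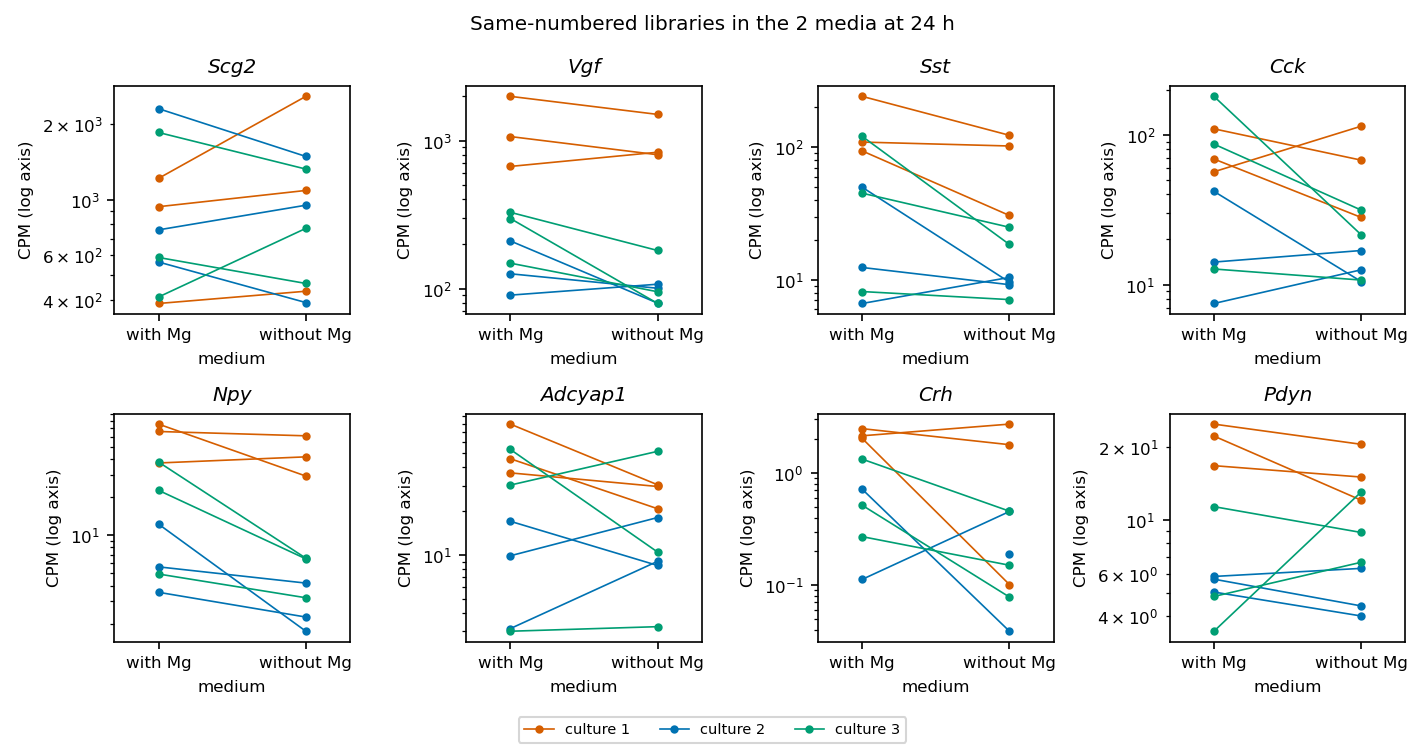
Level (CPM, log axis) of each gene at 24 h with and without magnesium; each line joins the libraries of 1 culture number and construct, 9 lines per gene. Npy and Sst lines run downwards in 8 of 9 pairs, and the line of the Crh pair whose first library had 0 counts is not drawn.

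Mbd3 is a subunit of the NuRD chromatin remodelling complex, and its overexpression was set against the GFP virus over the 6 combinations of time and medium. Scg2 was the only one of the 8 genes that passed. It rose by 0.88 ± 0.17 on the log2 scale in rMBD3 libraries (adjusted p = 0.000665, edgeR). Among all genes, 11% changed and 6.41% rose in this comparison, so 1 of 8 was near the share in general. The median change of the 8 genes was -0.13, beside -0.03 over all genes.

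The median of Scg2 was higher with rMBD3 than with GFP at each time. At 2 h the 6 rMBD3 libraries spanned 885 to 1573 CPM (median 1310), the GFP libraries 455 to 1071 CPM (median 827) and the untransfected libraries 402.5 to 810 CPM (median 618). At 6 h the ranges were 1124 to 3031 CPM (median 2393), 530 to 1700 CPM (median 1307) and 372 to 1452 CPM (median 781). At 24 h they were 1217 to 2581 CPM (median 1670), 464 to 1089 CPM (median 848) and 386 to 769 CPM (median 421). The rMBD3 and GFP ranges overlapped at 2 and 6 h and were apart at 24 h. The share of all genes whose ranges were apart was not counted. The medians kept 1 order throughout, with untransfected lowest and rMBD3 highest. Of 18 same-numbered pairs, 17 were higher with rMBD3; the exception was culture 1 at 6 h without magnesium, with 1124 against 1161 CPM. Mean within-culture differences were 0.89, 0.79 and 1.03 in cultures 1, 2 and 3.

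By time, the Scg2 difference between rMBD3 and GFP was 0.65 ± 0.29 at 2 h (adjusted p = 0.369), 0.83 ± 0.29 at 6 h (adjusted p = 0.274) and 1.17 ± 0.29 at 24 h (adjusted p = 0.0432). In these comparisons of 6 against 6 libraries, 0, 0 and 1 of the 8 genes passed, against 0.874%, 0.221% and 0.949% of all genes (0.396% higher at 24 h). The difference of the Scg2 effect between 24 and 2 h was 0.52 ± 0.41 (adjusted p = 0.738, interaction), and 0.0175% of all genes passed that test. Between medium without and with magnesium the Scg2 effect differed by -0.43 ± 0.33 (adjusted p = 1, interaction), and 0% of genes passed. With a block per culture and time point the 6 h difference was 0.85 (adjusted p = 0.0239; 1 of 8 genes, 3.1% of all genes). The 24 h call was lost without culture 2 (1.17, adjusted p = 0.252), without culture 3 (1.01, adjusted p = 0.55) and with no filter on low counts (1.17, adjusted p = 0.0624).

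**Figure D4:**
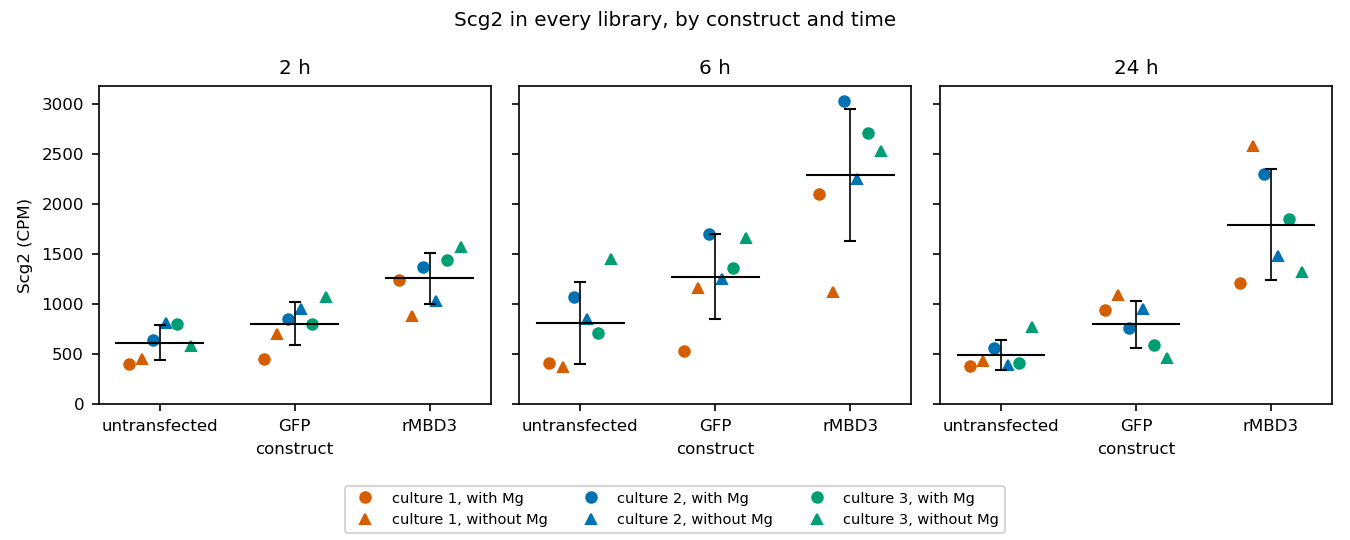
Scg2 level (CPM, linear axis from 0) in every library by construct at 2, 6 and 24 h; circles are medium with and triangles medium without magnesium, colours are cultures, and bars give the mean and SD of 6 libraries. At 24 h the 6 rMBD3 libraries lie between 1217 and 2581 CPM, all above the GFP libraries at 464 to 1089 CPM. The share of all genes with ranges apart was not counted.

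The control virus was also compared with no virus, over the same 6 conditions. Scg2 was higher in GFP than in untransfected libraries in 16 of 18 pairs, by 0.58 ± 0.17 (adjusted p = 0.119), and no member passed this test, against 0.297% of all genes. With the culture number as a block the Scg2 value was 0.61 (adjusted p = 0.0276; 1 of 8 genes, 1.34% of all), with a block per culture and time point 0.59 (adjusted p = 0.00694; 1 of 8, 2.92%), and with DESeq2 0.57 (adjusted p = 0.0382). Within cultures 1, 2 and 3 the means were 0.90, 0.59 and 0.30. Adcyap1 was also higher with GFP in 16 of 18 pairs, by 0.35 ± 0.26 (adjusted p = 0.778). The other 6 genes were between -0.32 (Sst) and 0.08 (Vgf). This comparison and that of rMBD3 with GFP share the GFP libraries, so a high or low GFP library enters both.

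Adcyap1 had the opposite sign to Scg2 with rMBD3. Its 18 rMBD3 libraries spanned 2.98 to 126 CPM (median 48.5) and its GFP libraries 8.45 to 159 CPM (median 76.0). It was lower with rMBD3 in 15 of 18 pairs, and the fitted difference was -0.60 ± 0.26 (adjusted p = 0.125). At 24 h the 6 rMBD3 values of Adcyap1 were 20.8 and 45.8 CPM in culture 1, 3.11 and 9.03 CPM in culture 2, and 2.98 and 3.21 CPM in culture 3. The GFP values were 30.3 and 79.4, 8.45 and 17.02, and 10.4 and 53.1 CPM in the same order. With a block per culture and time point 3 of 8 genes passed over the 6 conditions, against 23.8% of all genes: Scg2, Adcyap1 (-0.65 ± 0.18, adjusted p = 0.00674) and Sst (-0.57 ± 0.21, adjusted p = 0.0493). Without culture 1 Adcyap1 was at -0.96 (adjusted p = 0.00897).

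At 24 h the 4 genes that fell with time had negative values for rMBD3 against GFP, none of which passed in the fit without a block. Cck was at -1.26 ± 0.55 (adjusted p = 0.215), Sst at -1.21 ± 0.70 (adjusted p = 0.374), Crh at -1.39 ± 0.74 (adjusted p = 0.325) and Adcyap1 at -1.05 ± 0.45 (adjusted p = 0.21). At 2 h the same genes were at 0.34, -0.17, 0.07 and -0.27. Each of Cck, Sst and Adcyap1 was lower in 5 of 6 pairs at 24 h, and for all 3 the exception was culture 2 in medium without magnesium. Crh was lower in 4 of 6 pairs, with a mean difference of 0.05 in culture 3 and pairs at -5.36 and 1.86 in culture 2. Its 24 h libraries held only 0 to 46 counts with rMBD3 and 1 to 60 with GFP. Npy, which did not pass for time, was lower in 4 of 6 pairs (mean of the pair differences -0.68). Its mean level at 24 h was 19.8 CPM with rMBD3 and 20.3 CPM with GFP, and its median 4.24 and 17.4 CPM. With 1 block per culture number Cck was called (-1.35, adjusted p = 0.0244), so that 2 of 8 genes passed and 6.59% of all. A block per culture and time point called Cck (-1.31, adjusted p = 0.00858), Sst (-1.48, adjusted p = 0.00893) and Adcyap1 (-1.25, adjusted p = 0.00916) beside Scg2, 4 of 8 genes against 12.7% of all. Without culture 1 the same 4 genes passed, against 10.4% of all, with Adcyap1 at -2.10 (adjusted p = 0.00596), Sst at -1.85 (adjusted p = 0.0141) and Cck at -1.78 (adjusted p = 0.0211). For Cck, the difference of the rMBD3 effect between 24 and 2 h was -1.60 ± 0.77 (adjusted p = 0.601, interaction).

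Vgf, Npy, Pdyn, Cck and Crh did not pass for rMBD3 against GFP in any of the fits run over the 6 conditions. Vgf was at 0.52 ± 0.38 (adjusted p = 0.417), with 6 of 6 pairs higher in culture 1 (mean 1.16), 3 of 6 in culture 2 (0.01) and 3 of 6 in culture 3 (-0.13). The cultures went the same way at 6 h, where 6 of 6 Vgf pairs were higher with rMBD3 (means 1.19, 0.40 and 0.47 in cultures 1, 2 and 3). At 2 h the 2 pairs of culture 1 were higher and the 4 of cultures 2 and 3 lower, and at 24 h both pairs of culture 1 and 1 of 2 in each other culture were higher. The fitted Vgf value at 6 h was 0.73 ± 0.66 (adjusted p = 0.804), and that over the 6 conditions was -0.04 without culture 1. Npy was at 0.10 ± 0.39 (adjusted p = 0.923) and Pdyn at 0.44 ± 0.25 (adjusted p = 0.271), higher in 12 of 18 pairs.

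**Figure D5:**
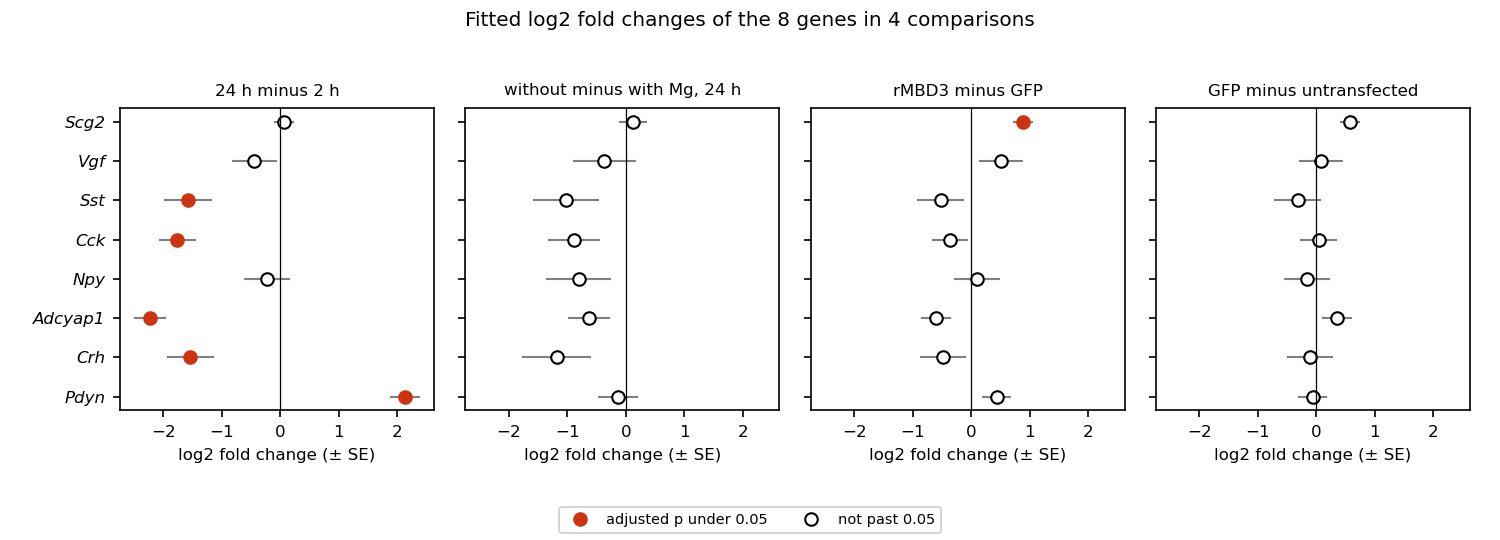
Fitted log2 fold change with its SE for the 8 genes in 4 comparisons from the edgeR fit to 54 libraries; filled points have an adjusted p under 0.05. Filled points are Pdyn, Adcyap1, Cck, Sst and Crh for 24 h minus 2 h and Scg2 for rMBD3 minus GFP, and none for medium at 24 h or for GFP minus untransfected.

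Over the 18 group means of log2 CPM, the genes most like a member among 12161 compared were ENSRNOG00000002343 for Cck (chromosome 14, 41485031 to 41495590, Pearson r = 0.993) and ENSRNOG00000008919 for Adcyap1 (chromosome 8, 112034642 to 112194297, r = 0.987). The highest r found for Scg2 was 0.925 and for Vgf 0.943. All points of a correlation share their libraries and the course of time, so these values are a description across 18 group means.

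On mRatBN7.2, the build of the counts, Scg2 lies on chromosome 9 from 80803075 to 80821097 (minus strand, 3501 bases of exon) and Vgf on chromosome 12 from 19637320 to 19640341 (minus strand, 2636 bases). Adcyap1 lies on chromosome 9 from 113103718 to 113109773 (minus, 2117 bases), Pdyn on chromosome 3 from 116900992 to 116913334 (minus, 2439 bases) and Cck on chromosome 8 from 121153500 to 121160084 (minus, 844 bases). Sst spans 76956896 to 76958173 of chromosome 11 (plus, 657 bases), Npy 78881264 to 78888495 of chromosome 4 (plus, 619 bases) and Crh 102143055 to 102144919 of chromosome 2 (minus, 1196 bases). The counts are over all exons of each gene. Each gene took a small part of a library: Scg2 0.0350% to 0.314% of the counts, Vgf 0.00811% to 0.190% and Crh at most 0.000452%.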

How the data were processed

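RNA was sequenced from 54 libraries in 18 groups. Per the file headers, the deposited counts of read pairs per gene were made by the authors with featureCounts 2.0.0 (strand setting 2, minimum mapping quality 3, primary alignments, Ensembl release 105 of mRatBN7.2). Per the submitters' processing notes, reads were trimmed with Trim Galore and aligned with STAR; the labels' protocols name rn6, the header and notes mRatBN7.2. The deposited table of log2 values was not used.

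Counts were tested with edgeR 4.0.16 in R 4.3.3: filterByExpr (minimum count 10, minimum total 15), TMM, a robust quasi-likelihood fit with 1 coefficient per group and no block, and Benjamini-Hochberg adjustment over 17172 genes with a threshold of 0.05. Within-culture log2 differences used a prior count of 0.5. The floor of 3 counts is a matter of counting error, as PCR copies could not be told from separate molecules. None of the 54 library pairs within groups looked like copies (chi-square per gene 9.76 to 358).

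Deviations of same-numbered libraries correlated at a mean of 0.22 over 135 pairs within time points and 0.121 over 324 pairs between them. Among pairs between times matched in construct and medium, the mean was 0.232 for 6 and 2 h, 0.151 for 24 and 6 h and 0.0459 for 24 and 2 h. The replicate number pairs samples because the labels give it as the cell culture. Alternatives were that number as a block (over all times or per time point, the latter not for time), DESeq2 1.42.0, RLE factors, no filter, raw totals for levels, and each replicate left out; leaving out the 24 h libraries of culture 1 was chosen after seeing the data. The members and lists were chosen with earlier results of these data known. All members are named; likeness was the highest Pearson correlation among genes with a mean log2 CPM of at least 1, printed for 2. Gene lists by symbol, including granule processing genes and cell type markers, were not analysed here, because 0 identifiers could be paired with symbols. Scripts were tested on simulated data in which libraries were drawn independently, with no effect shared within a culture.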

Additional observations from a re-analysis of the deposited data

Results flagged for a closer look

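Vgf and Npy changed in opposite directions in different cultures, in all 6 combinations of construct and medium on both sides. They were picked from the members by this split, and the share of all genes that split this way was not counted. The differences between cultures were not tested. From 2 to 24 h the mean log2 change of Vgf was 1.75 in culture 1 and -3.05 in culture 2, a difference of 4.80, and -1.90 in culture 3, a difference of 3.65. From 2 to 6 h it was 1.01 in culture 1 and -1.22 in culture 2, a difference of 2.23. From 6 to 24 h it was 0.75 in culture 1 against -1.83 in culture 2 (difference 2.57) and -1.55 in culture 3 (difference 2.29).

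For Npy, the mean log2 change from 2 to 24 h was 1.12 in culture 1 and -2.70 in culture 2, a difference of 3.82. From 2 to 6 h it was 0.67 in culture 1, against -1.27 in culture 2 (difference 1.94) and -0.51 in culture 3 (difference 1.18).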

How the results depend on the processing

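Over 52 member values and 444 alternatives, 370 kept their direction and side of the threshold, 36 newly passed it, 20 no longer passed it and 18 changed sign. The block by culture number gave 2 of 8 genes for rMBD3 against GFP at 24 h (without the block 1) and 1 for GFP against untransfected (0); the block per time point gave 3 for medium at 24 h (0), 3 for rMBD3 over 6 conditions (1), 1 for rMBD3 at 6 h (0), 4 at 24 h and 1 for GFP against untransfected. DESeq2 gave 1 for GFP against untransfected (1.66% of all genes), and no filter gave 0 for rMBD3 at 24 h (0.29%). Without the 24 h libraries of culture 1 there was 1 for medium at 24 h (3.06% of all genes), 2 for rMBD3 over 6 conditions (16.3%) and 2 at 24 h (6.28%). Leaving out 1 replicate number gave 2 to 8 genes for 6 against 2 h, 2 to 8 for 24 against 6 h, 3 to 7 for 24 against 2 h, 1 to 2 for rMBD3 over 6 conditions and 0 to 4 at 24 h. The shares of all genes moved with these counts: without replicates 1, 2 and 3 they were 57.5%, 32.2% and 29.7% for 6 against 2 h, 60.3%, 33.7% and 31% for 24 against 6 h, 75.2%, 57.9% and 56.5% for 24 against 2 h, 14.5%, 2.93% and 1.77% for rMBD3 over 6 conditions, and 10.4%, 0.0403% and 0.00574% for rMBD3 at 24 h. For all genes, rMBD3 over 6 conditions ranged from 309 calls (without replicate 3) to 4083 (block per time point) against 1886. On raw totals 1 of 144 group means moved by more than its SD.

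Sign changes were in values that had not passed. With replicate numbers left out in turn, the values of Vgf ranged from -0.77 to 0.26 for 6 against 2 h, -1.63 to 0.18 for 24 against 6 h (0.18 without replicate 2 and 0.19 without 3), -2.39 to 0.44 for 24 against 2 h, and -0.0406 to 0.70 for rMBD3. Those of Npy ranged from -0.77 to 0.14, -1.17 to 0.19 and -1.94 to 0.29 for the 3 time comparisons, and from -0.20 to 0.18 for rMBD3. Those of Scg2 ranged from -0.10 to 0.22 for 24 against 2 h and -0.0801 to 0.33 for medium at 24 h, and those of Pdyn from -0.38 to 0.26 for medium at 24 h. In each range the end of opposite sign was without replicate 2 or 3 for Vgf and Npy over time, and without replicate 1 for the others. Without the 24 h libraries of culture 1, Scg2 was -0.0814 and Pdyn 0.26 for medium at 24 h, and Npy -0.29 for rMBD3; the block per time point gave Npy -0.0524 for rMBD3. The cause was not tested. Depth limits Crh most, with 0 to 87 counts per library at 24 h.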
